A study of Mus musculus with 6 samples.

Results

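The NR4A nuclear receptor genes Nr4a1, Nr4a2 and Nr4a3 and 7 other immediate early genes that encode no AP-1 factor (Ier2, Ier3, Ier5, Csrnp1, Btg2, Arc and Zfp36) were followed in fenofibrate-treated and control mouse melanoma cells. The 10 genes were taken by symbol from a fixed list, among 54838 genes of the deposited table, and all 10 were found. Bulk RNA sequencing of mRNA-enriched total RNA gave 3 libraries of cells treated with 50 µM fenofibrate and 3 control libraries of the B16F10 line, a transplantable melanoma line of C57BL/6 origin. Fenofibrate is a lipid-lowering drug that, once cut to its acid, activates the nuclear receptor PPARα. The design text calls the libraries biological triplicates; the treatment time and the vehicle are not given in the sources used here. The cell line field counts up from B16F10 to B16F15 over the 6 samples, so if that field is meant as written each library is a line of its own, and the effects of line and treatment cannot be told apart.

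Immediate early genes are transcribed within minutes of a growth factor, cyclic AMP, calcium or stress signal, without new protein synthesis, mainly through factors such as SRF and CREB that already sit on their promoters. Their mRNAs are short-lived, and their products are transcription factors and regulators of mRNA decay, signalling and survival. The NR4A proteins are orphan nuclear receptors that act without a known natural ligand, so their activity follows largely from how much of them is made. In melanocytes NR4A genes are known to be induced through the melanocortin receptor and cyclic AMP.

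The libraries held between 13540038 and 14710856 counts. At this depth a gene without a count may still reach a level of 0.204 to 0.222 CPM (counts scaled to a library total of 1000000), depending on the library; this limit of 3 counts covers counting error only. The correlation of log2 CPM across genes, which are not independent replicates, was 0.986 between all pairs of fenofibrate libraries, between 0.984 and 0.985 for control libraries, and between 0.957 and 0.963 across the groups. All 7 melanocyte markers were counted, with a summed level of 26034 to 27577 CPM in fenofibrate libraries and 21209 to 22592 CPM in control libraries. Of 7 T and NK cell markers, Cd3e, Cd3d, Cd8a and Nkg7 were at 0 in every library, and the rest summed to at most 0.816 CPM with fenofibrate and to 0 in control. Of 6 macrophage markers, Adgre1 and Itgam were at 0, and the list summed to between 3.48 and 6.35 CPM with fenofibrate and between 2.13 and 3.41 CPM in control. The 6 fibroblast markers summed to between 7.46 and 8.57 CPM with fenofibrate and between 23.2 and 26.3 CPM in control, and the 6 neuron markers, with Snap25 at 0, to between 45.7 and 50.4 CPM with fenofibrate and between 12.9 and 42.3 CPM in control. Cd68 held 190 of 210 macrophage marker counts with fenofibrate and 101 of 108 in control. Col1a2 held 287 of 336 fibroblast marker counts with fenofibrate and 902 of 1008 in control. Map2 held 1982 of 2043 neuron marker counts with fenofibrate and 1288 of 1342 in control, with 160 in control replicate 3. The sums of these lists thus rest mostly on a single gene each and do not show that such cells were present. Whether other cell types had a part in the results below was not tested. In bulk RNA more cells of a kind and more RNA per cell cannot be told apart.

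Of the 10 genes, 9 passed the filter on low counts and 8 of these were called higher with fenofibrate, at a Benjamini-Hochberg adjusted p of 0.05 from edgeR's quasi-likelihood test over 13629 genes. Among all genes tested 19.5% were called higher and 19.5% lower. When libraries were scaled by their totals alone the split over all genes was 2180 higher and 3280 lower, against 2664 and 2662 with the TMM scaling used here, and 8 of the 9 genes were still called higher. Nr4a3, Csrnp1, Nr4a1 and Nr4a2 rose most, between 2.17-fold and 5.37-fold, followed by Ier5, Zfp36, Ier2 and Ier3, between 1.35-fold and 1.86-fold. Btg2 was 1.31-fold lower with an adjusted p of 0.0626, so its difference did not pass the test. Arc was counted 0 times in all 6 libraries. The median fold of the 9 genes was 1.86 (log2 fold change 0.89), beside a median log2 fold change of -0.00 over all genes tested. The groups did not overlap in any of the 9, with 8 higher and 1 lower in every fenofibrate library than in every control library; over all genes tested 26.4% were separated upward and 26.9% downward, 53.3% in all.

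**Figure D1:**
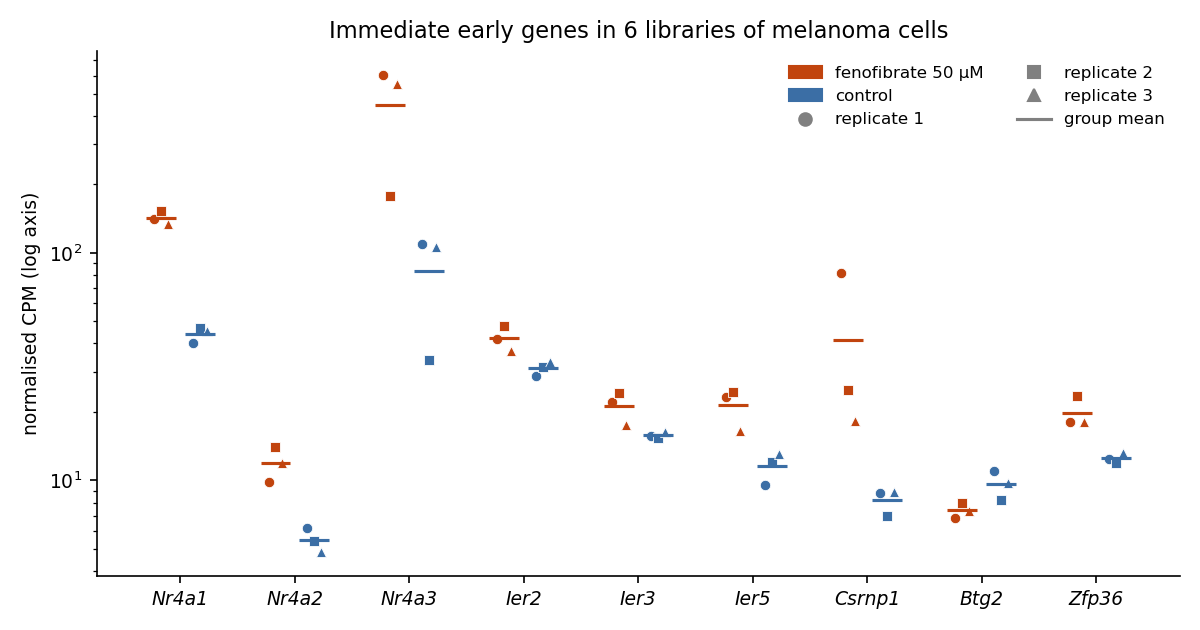
Normalised CPM (per TMM-scaled library total, log axis) of the 9 counted genes, with fenofibrate libraries left and control libraries right of each tick, one symbol per replicate number and a line at the group mean. Nr4a1 lies between 134 and 153 with fenofibrate and between 40.1 and 46.5 in control, while Nr4a3 has its square (replicate 2) far below the other symbols in both groups and Csrnp1 has 1 fenofibrate library at 81.4.

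The promoters of the receptor genes are shown because all 3 hold the same short motif several times. They come from RefSeq (GRCm38.p6), which has promoter windows for 8 of the 10 genes, and only bases before the start site and outside annotated exons are printed, 5′ to 3′ on the gene's strand. Capitals mark the core of the cyclic AMP response element (CRE), TGACG on either strand (written CGTCA where it lies on the opposite strand), the full CRE, TGACGTCA, in Btg2, and TATAAA on the opposite strand in Nr4a2. CREB and its relatives are known to bind these elements.
Nr4a1 (chr15:101266596-101266845, plus strand): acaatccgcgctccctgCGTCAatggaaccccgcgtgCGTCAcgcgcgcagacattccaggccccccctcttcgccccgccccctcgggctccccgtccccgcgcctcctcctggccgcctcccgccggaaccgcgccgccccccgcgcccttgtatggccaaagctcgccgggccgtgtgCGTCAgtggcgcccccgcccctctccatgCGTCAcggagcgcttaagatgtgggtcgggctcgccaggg
Nr4a2 (chr2:57124004-57124253, minus strand): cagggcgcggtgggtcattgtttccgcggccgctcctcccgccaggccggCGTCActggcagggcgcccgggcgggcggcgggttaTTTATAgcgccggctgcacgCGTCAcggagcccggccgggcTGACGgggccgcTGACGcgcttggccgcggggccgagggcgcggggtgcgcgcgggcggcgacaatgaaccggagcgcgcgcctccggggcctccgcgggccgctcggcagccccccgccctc
Nr4a3 (chr4:48045055-48045152, plus strand): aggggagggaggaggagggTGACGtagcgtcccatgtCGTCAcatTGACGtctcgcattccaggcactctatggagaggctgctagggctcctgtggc
Btg2 (chr1:134079156-134079405, minus strand): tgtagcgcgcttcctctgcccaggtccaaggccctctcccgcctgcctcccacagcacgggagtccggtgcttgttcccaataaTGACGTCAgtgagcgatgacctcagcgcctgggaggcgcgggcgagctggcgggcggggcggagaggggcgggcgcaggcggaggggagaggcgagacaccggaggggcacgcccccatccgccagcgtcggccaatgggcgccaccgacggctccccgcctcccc

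In the 250 bases before the RefSeq start, Nr4a1, Nr4a2 and Nr4a3 each held TGACG 4 times, counting both strands. In Nr4a1 the matches began 233, 213, 69 and 40 bases before the start, and in Nr4a2 200, 144, 123 and 111 bases before it. In Nr4a3 they began 231, 213, 205 and 147 bases before the start, the last of them inside an annotated exon and so not printed. Of 32851 windows of the same length in the table, 17.8% held TGACG at least once and 45, or 0.137%, at least 4 times. Btg2 held the full CRE once, from 166 to 159 bases before the start, which contains TGACG on both strands; 1.55% of all windows hold it. Csrnp1, with 4 windows in the table, had 1 or 2 matches of TGACG in each, and Ier3, Ier5 and Zfp36 had none. G and C made up 74.4% of the window of Nr4a1, 80% of that of Nr4a2 and 63.6% of that of Nr4a3. The shares over all windows were not matched for G and C content, so its part in these counts was not tested. Letters in a window do not show that a factor binds there.

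Among the other motifs searched on both strands in these 250 bases, the CArG box, the SRF site of CC, 6 bases of A or T, and GG, was found in Zfp36 and in 1.47% of all windows. It lies from 58 to 49 bases before the start, inside an annotated exon, and is shown with 10 bases on either side and the box in capitals.
Zfp36 (chr7:28379267-28379296, minus strand): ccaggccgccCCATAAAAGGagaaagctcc

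The NR4A monomer site AAAGGTCA was in none of the windows of the 8 genes and in 1.34% of all windows. TATAAA was in Nr4a2 only, on the opposite strand from 164 to 159 bases before the start, and in 12.4% of all windows. Just these exact letters were searched, so variants of them in other windows were not counted. GGGCGG, the GC box, was in at least 1 window of all 8 genes and in 32.7% of all windows. The table has no entry for Ier2 and Arc.

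**Figure D2:**
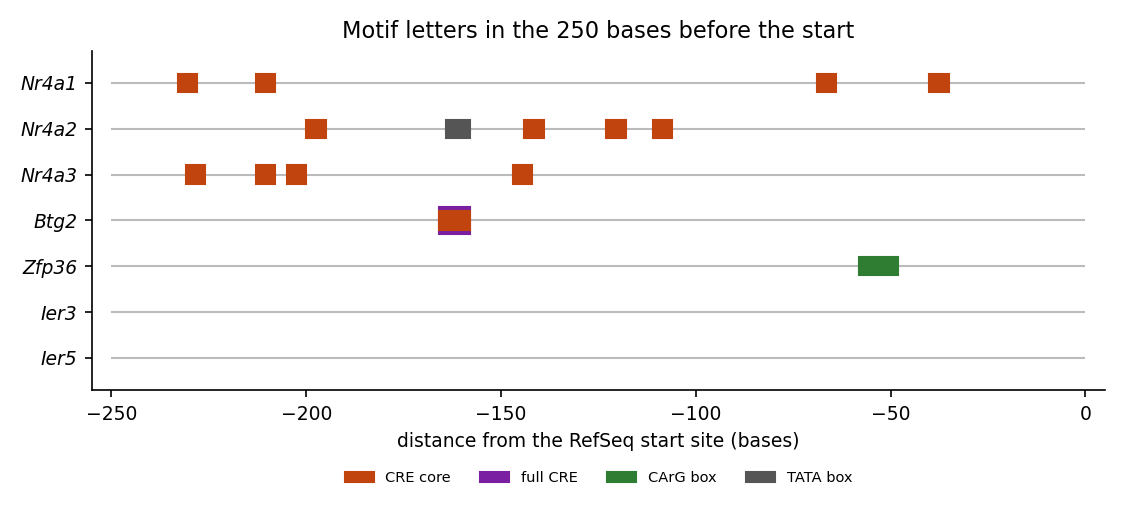
Position of motif letters on either strand in the 250 bases before the RefSeq start site of 7 genes, with a line per gene. The x axis gives the distance from the start in bases. Coloured blocks are the CRE core, the full CRE, the CArG box and the letters TATAAA (labelled TATA box). Nr4a1, Nr4a2 and Nr4a3 carry 4 CRE cores each, and Csrnp1, with 4 windows, is not drawn.

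Nr4a1 (Nur77), the best-known member of the receptor family and an early response gene in most cell types, rose with little spread between libraries. It was counted 1866, 2164 and 1926 times in the fenofibrate libraries and 557, 667 and 626 times in the control libraries. Every fenofibrate library thus held more than every control library by a wide margin, and the values within each group lay close together, with the highest 1.15 times the lowest under fenofibrate and 1.16 times in control. Its level was 143 ± 9.88 normalised CPM with fenofibrate and 44.0 ± 3.41 in control (mean ± SD, n = 3 each). The rise was 3.24-fold, with a log2 fold change of 1.70 ± 0.08 (SE), a 95% interval from 1.52 to 1.88 and an edgeR adjusted p of 1.28e-05. It passed the test with each library left out in turn. The gene, ENSMUSG00000023034, lies on chromosome 15 from 101254269 to 101274795 (GRCm38, plus strand) and overlaps no other annotated gene.

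Nr4a2 (Nurr1), known for its role in the development and upkeep of dopamine neurons, was the least abundant of the family. Its counts were 131, 199 and 171 with fenofibrate and 86, 78 and 67 in control. The lowest fenofibrate library was above the highest control library. The level was 12.0 ± 2.10 normalised CPM against 5.50 ± 0.670 in control (mean ± SD, n = 3 each), a rise of 2.17-fold (log2 fold change 1.12 ± 0.17 SE, 95% interval 0.73 to 1.51, edgeR adjusted p = 0.00172). It also passed with each library left out. ENSMUSG00000026826 spans bases 57106830 to 57124003 of chromosome 2 on the minus strand and overlaps no other annotated gene.

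Nr4a3 (NOR-1), known as the partner of EWSR1 in the fusion gene of extraskeletal myxoid chondrosarcoma in humans, had the largest rise and a wide spread within both groups. Its counts were 8025, 2503 and 7929 with fenofibrate and 1516, 486 and 1456 in control. Replicate 2 was the lowest library of each group, and the highest library was 3.42 times the lowest with fenofibrate and 3.22 times in control. Even so the lowest fenofibrate library was above the highest control library. The level was 445 ± 233 normalised CPM with fenofibrate and 82.9 ± 42.5 in control (mean ± SD, n = 3 each), which is 5.37-fold, with a log2 fold change of 2.42 ± 0.55 (SE), a 95% interval from 1.14 to 3.71 and an edgeR adjusted p of 0.0110. Without replicate 2 of both groups the rise was 5.38-fold with an adjusted p of 8.36e-05, and with the replicate number as a block it was 5.33-fold (adjusted p = 2.53e-05). With robust dispersion estimates, which treat genes of unusual spread separately, the same fold had an adjusted p of 0.0682. ENSMUSG00000028341 spans bases 48045153 to 48086447 of chromosome 4 on the plus strand and overlaps no other annotated gene.

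Such unevenness within groups was rare in these libraries. Among 11377 genes with a mean of 50 counts or more, the median ratio of the highest to the lowest library was 1.13 with fenofibrate and 1.12 in control. The ratio reached 3 in at least 1 group for 149 of them (1.31%) and in both groups for 39, Nr4a3 among them. A search for genes with replicate 2 at least 2.5-fold below both other libraries in each group, which let ties at 0 pass, returned 3. They were Nr4a3 and, named after their values were seen, Nup62, a nuclear pore gene, and Gm45062. Gm45062 had 292, 0 and 272 counts with fenofibrate and 169, 0 and 0 in control, so its control replicate 2 was level with replicate 3 and not below it. Nup62 had 1372, 523 and 1442 counts with fenofibrate and 1749, 679 and 1781 in control. What sets these libraries apart in Nr4a3 was not tested.

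Compared per length, which is needed between genes, Nr4a1 and Nr4a3 made up nearly all of the family's RNA. In deposited FPKM the 3 receptor genes summed to 91.6, 57.7 and 85.2 with fenofibrate and to 21.9, 16.5 and 22.6 in control, with no overlap between the groups. Nr4a1 took 39.7%, 68.9% and 40.5% of that sum with fenofibrate and 49.3%, 75.8% and 53.7% in control. Nr4a3 took 58.7%, 27.4% and 57.3% with fenofibrate and 46.1%, 19.0% and 42.9% in control. Nr4a2 took between 1.66% and 3.77% with fenofibrate and between 3.42% and 5.28% in control. The shares of the groups overlap for all 3 genes, and replicate 2 of each group stands apart through its low Nr4a3. The deposited FPKM divides Nr4a3 by 11028 bases, the sum of its distinct annotated exons, although the exons merged cover 5987 bases. On merged lengths Nr4a3 took 70.4%, 38.6% and 69.1% of the family's sum with fenofibrate and 58.5%, 27.9% and 55.5% in control, so the order of Nr4a1 and Nr4a3 in control turns with the length used in replicates 1 and 3.

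**Figure D3:**
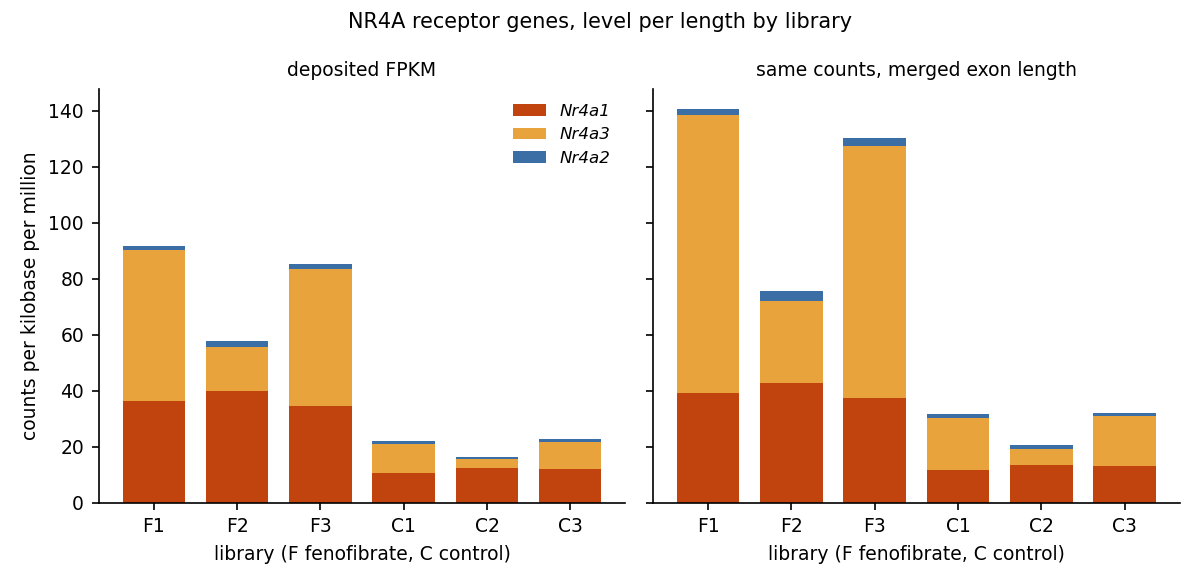
Stacked level per length of Nr4a1, Nr4a3 and Nr4a2 in each library (F1 to F3 fenofibrate, C1 to C3 control), per kilobase and library total, with the deposited FPKM on the left and the same counts over the merged exon length on the right. The summed deposited FPKM lie between 57.7 and 91.6 with fenofibrate and between 16.5 and 22.6 in control, and the Nr4a3 part is smallest in F2 and C2 within its group.

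The Ier genes are named for their rapid induction; Ier2 and Ier5 belong to one protein family, and Ier3 is unrelated to them. Ier5, which in human cells is known to promote activity of the heat shock factor HSF1, was counted 307, 346 and 238 times with fenofibrate and 132, 172 and 180 times in control. All 3 fenofibrate libraries were above all controls, with replicate 3 the lowest of them. Its rise was 1.86-fold (21.4 ± 4.27 normalised CPM against 11.5 ± 1.82 in control, mean ± SD, n = 3 each; log2 fold change 0.89 ± 0.18 SE, edgeR adjusted p = 0.00612). ENSMUSG00000056708 lies on chromosome 1 from 155096361 to 155099636, minus strand.

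Ier2, a nuclear protein linked to cell motility, was counted 551, 674 and 531 times with fenofibrate and 398, 452 and 457 times in control. Its level was the highest of the 10 in the control libraries in deposited FPKM, with 26.7, 30.8 and 23.7 FPKM with fenofibrate and 19.2, 21.1 and 22.1 FPKM in control. The groups came close, since the lowest fenofibrate value was not far above the highest control value. The rise was 1.35-fold (log2 fold change 0.44 ± 0.11 SE, 95% interval 0.19 to 0.68, edgeR adjusted p = 0.0146), and without control replicate 1 the adjusted p was 0.0526. ENSMUSG00000053560 lies on chromosome 8 from 84661331 to 84662852, minus strand.

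Ier3 (IEX-1), which is known to affect cell survival and ERK signalling, was counted 292, 341 and 252 times with fenofibrate and 217, 220 and 225 times in control. The control libraries were almost equal, while fenofibrate replicate 3 lay nearest to them. The rise was 1.35-fold (21.2 ± 3.40 normalised CPM against 15.8 ± 0.502, mean ± SD, n = 3 each; log2 fold change 0.43 ± 0.12 SE, 95% interval 0.14 to 0.72, edgeR adjusted p = 0.0288). This was the least firm of the 8 calls: it was kept in 1 of the 6 fits that left out a library, the one without fenofibrate replicate 3, and in the others its adjusted p ran from 0.0581 to 0.0852. ENSMUSG00000003541 lies on chromosome 17 from 35821684 to 35822923, plus strand, and none of the 3 Ier genes overlaps another annotated gene.

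Csrnp1, a nuclear protein of a small family of cysteine- and serine-rich transcriptional activators, rose 5.03-fold, but 1 library carried much of it. It was counted 1078, 351 and 262 times with fenofibrate and 122, 100 and 123 times in control. Fenofibrate replicate 1 stood far above the other 2, which were themselves above every control. The level was 41.5 ± 34.7 normalised CPM with fenofibrate and 8.23 ± 1.09 in control (mean ± SD, n = 3 each; log2 fold change 2.33 ± 0.56 SE, 95% interval 1.04 to 3.62, edgeR adjusted p = 0.0132). Without fenofibrate replicate 1 the rise was 2.62-fold with an adjusted p of 0.00243, and with robust dispersion estimates the adjusted p was 0.0729. With limma on log2(FPKM + 0.5) the rise was 3.09-fold, and on log2(FPKM + 0.1) it was 3.70-fold. The first scale understates changes of low genes, and limma averages logs over the libraries while edgeR fits counts. How much of the smaller fold comes from either was not tested. ENSMUSG00000032515 spans bases 119971163 to 119984658 of chromosome 9 on the minus strand. It shares 224 exonic bases with the antisense gene 1700019L13Rik, which had 3 counts in control replicate 2 and 0 in the other libraries.

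Zfp36 and Btg2 both act on mRNA decay through the CCR4-NOT deadenylase. Zfp36 (tristetraprolin) binds AU-rich elements of cytokine and early response mRNAs and recruits that complex. It was counted 240, 330 and 260 times with fenofibrate and 173, 171 and 182 times in control. The control libraries were nearly alike, and every fenofibrate library exceeded them. The rise was 1.58-fold (19.8 ± 3.05 normalised CPM against 12.5 ± 0.640, mean ± SD, n = 3 each; log2 fold change 0.66 ± 0.12 SE, edgeR adjusted p = 0.00448), and it passed with each library left out. ENSMUSG00000044786 lies on chromosome 7 from 28376784 to 28380253, minus strand, and shares 125 exonic bases with the antisense gene Gm44710, whose counts were between 1 and 7.

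Btg2, an antiproliferative gene induced by p53 that binds the deadenylase subunits CNOT7 and CNOT8, was the one tested gene with lower values. It was counted 91, 112 and 106 times with fenofibrate and 153, 118 and 135 times in control. The groups did not overlap, although fenofibrate replicate 2 and control replicate 2 were close. The level was 7.39 ± 0.532 normalised CPM against 9.68 ± 1.40 in control (mean ± SD, n = 3 each), with a log2 fold change of -0.39 ± 0.14 (SE), a 95% interval from -0.72 to -0.06 and an edgeR adjusted p of 0.0626. Scaled by library totals alone the adjusted p was 0.0400, and without control replicate 2 it was 0.0335. ENSMUSG00000020423 lies on chromosome 1 from 134075170 to 134079120, minus strand, and overlaps no other annotated gene.

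Arc, a synaptic protein that is an immediate early gene of neurons, was at 0 counts in all 6 libraries, which allows up to 0.222 CPM in the shallowest of them. ENSMUSG00000022602 lies on chromosome 15 from 74669083 to 74672570, minus strand. No fold can be given.

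**Figure D4:**
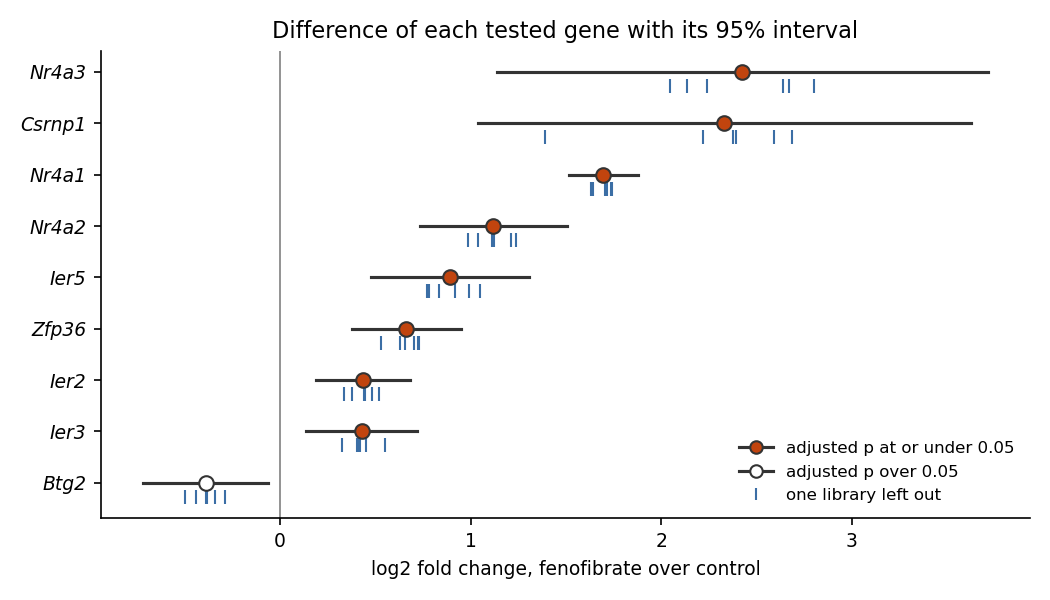
Log2 fold change of each tested gene (fenofibrate over control, circles) with its 95% interval from edgeR; filled circles have an adjusted p at or under 0.05, and blue ticks give the value with 1 library left out. Nr4a3 and Csrnp1 have the widest intervals, from 1.14 to 3.71 and from 1.04 to 3.62, and Nr4a1 the narrowest of the 4 largest, from 1.52 to 1.88.

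The genes can be ordered by level per length in deposited FPKM. With fenofibrate, Nr4a3 (39.5 ± 20.6), Nr4a1 (36.9 ± 2.64) and Ier2 (27.1 ± 3.57) came first, and the wide spread of Nr4a3 covers both others. Ier3 followed with 18.4 ± 2.98, then Ier5 with 6.40 ± 1.29 and Csrnp1 with 5.71 ± 4.77, which differ by less than the spread of Csrnp1. Zfp36 (3.70 ± 0.579), Btg2 (2.64 ± 0.196) and Nr4a2 (1.84 ± 0.328) came last among the counted genes (mean ± SD, n = 3 each). In control the order was Ier2 (20.8 ± 1.45), Ier3 (14.2 ± 0.409), Nr4a1 (11.8 ± 0.893), Nr4a3 (7.65 ± 3.92), Btg2 (3.59 ± 0.523), Ier5 (3.58 ± 0.554), Zfp36 (2.43 ± 0.117), Csrnp1 (1.18 ± 0.155) and Nr4a2 (0.880 ± 0.110). Btg2 and Ier5 were indistinguishable there, and the SDs of Nr4a1 and Nr4a3 meet. The authors' length exceeds the merged exon length 2.05-fold for Csrnp1, 1.84-fold for Nr4a3, 1.57-fold for Nr4a2, 1.51-fold for Zfp36 and 1.08-fold for Nr4a1. Both lengths are equal for Ier2, Ier3, Ier5 and Btg2. The deposited levels of the first 5 are thus lower by that much than on merged exon lengths. Which length is nearer to the expressed transcripts was not tested. On merged exon lengths the mean levels with fenofibrate ran from Nr4a3 (72.7) over Nr4a1 (39.8), Ier2 (27.1), Ier3 (18.4), Csrnp1 (11.7), Ier5 (6.40), Zfp36 (5.61) and Nr4a2 (2.89) to Btg2 (2.64), which puts Csrnp1 above Ier5 and Nr4a2 above Btg2. In control they ran from Ier2 (20.8) over Ier3 (14.2), Nr4a3 (14.1), Nr4a1 (12.8), Zfp36 (3.68), Btg2 (3.59), Ier5 (3.58) and Csrnp1 (2.41) to Nr4a2 (1.38), which puts Nr4a3 above Nr4a1 and Zfp36 above Btg2 and Ier5. The order of these neighbours therefore turns with the length used.

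Several paralogs of these genes moved as well, in both directions. Of 11 paralogs 8 were tested, and 5 rose, 1 fell and 2 were not called, with a median log2 fold change of 0.30. For comparison, 19.5% of all genes tested were called higher and 19.5% lower. Ier5l, the close relative of Ier5, rose 3.45-fold (365 counts over the fenofibrate libraries and 106 over the controls; edgeR adjusted p = 0.00206). Btg1 and Btg3, antiproliferative relatives of Btg2, rose 2.22-fold (adjusted p = 0.000172) and 1.66-fold (adjusted p = 0.00244) in the same edgeR test, while Btg2 itself had lower values. Zfp36l1, which like Zfp36 binds AU-rich elements, was 1.51-fold lower, at 50.2 ± 3.02 normalised CPM with fenofibrate and 75.7 ± 0.602 in control (SD, n = 3 each; edgeR adjusted p = 0.000302). Csrnp2 had a fold of 1.05 (adjusted p = 0.477). The retinoid X receptors RXRα and RXRγ are dimer partners of NR4A1 and NR4A2. Of the 3 Rxr genes 2 were tested, and 1 fell and 1 was not called. Rxra was 1.58-fold lower (81.0 ± 4.46 normalised CPM against 128 ± 3.91, mean ± SD, n = 3 each; edgeR adjusted p = 0.000143), and Rxrg had 1 count over the fenofibrate libraries and 2 over the controls. Btg3 and Zfp36l1 share annotated exon bases with another gene, so reads of that gene may be among their counts.

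The factors that turn these genes on were called in about the shares seen over all genes tested, of which 19.5% were higher and 19.5% lower. Of 25 genes for SRF, CREB and MEF2 factors, their coactivators and the kinases upstream, 5 rose, 5 fell and 15 were not called, with a median log2 fold change of 0.04. Srf rose 2.52-fold (127 ± 16.9 normalised CPM against 50.5 ± 0.111, mean ± SD, n = 3 each; edgeR adjusted p = 6.75e-05) and Mef2d, a MEF2 factor, 1.77-fold (adjusted p = 0.00104). Crtc3, a CREB coactivator, was 1.26-fold lower (adjusted p = 0.0136) and Rps6ka1, the gene of an ERK-activated kinase, 1.39-fold lower (adjusted p = 0.00317). Creb1 had a log2 fold change of -0.05 ± 0.10 (SE, adjusted p = 0.741). Of 10 CREB target genes tested of 12, 6 rose, 2 fell and 2 were not called (median log2 fold change 0.57). Bdnf, a neurotrophin gene, rose 3.31-fold (adjusted p = 8.08e-05), and Sik1, a kinase that restrains CREB coactivators, 2.92-fold (adjusted p = 4.88e-05). The clock gene Per1 was 1.28-fold lower (adjusted p = 0.0123). Mef2d, Rps6ka1 and Bdnf share exon bases with another annotated gene.

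Most other immediate early genes on the lists compared rose as well. Beside the counts below, 19.5% of all genes tested were called higher and 19.5% lower. Of 12 AP-1 and EGR genes 10 were tested and all 10 rose, with a median log2 fold change of 1.68. Fosl2 rose 8.86-fold, Atf3 5.38-fold and Fos 3.88-fold. Of 32 other primary response genes 30 were tested, and 22 rose, 5 fell and 3 were not called (median log2 fold change 0.72). The phosphatase gene Dusp1 rose 8.89-fold and Hbegf, which encodes an EGF receptor ligand, 4.69-fold, while the cytokine signalling inhibitor gene Socs3 was 2.48-fold lower. These 6 genes had edgeR adjusted p values from 1.67e-06 to 0.000730. Of 10 activity-regulated genes of neurons, the setting in which Arc is best known, 6 were tested and 5 rose, Homer1 among them with 2.23-fold (adjusted p = 0.000319).

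**Figure D5:**
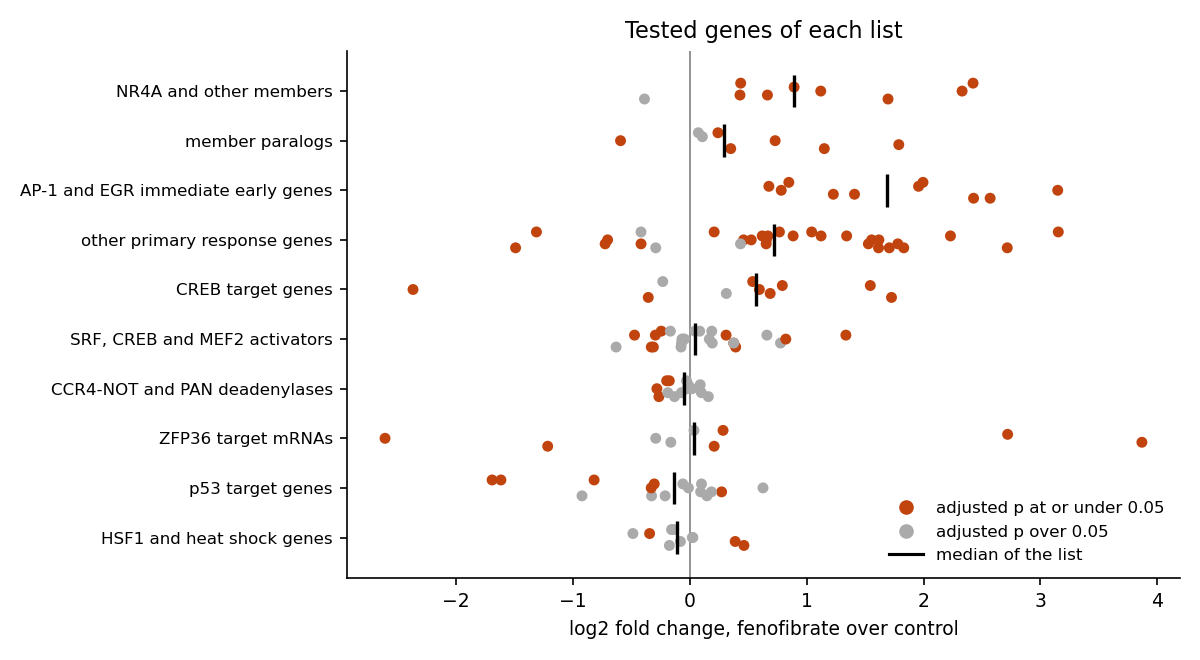
Log2 fold change (fenofibrate over control) of every tested gene in 10 lists, one point per gene, coloured where the adjusted p is at or under 0.05, with a black line at each list's median. The median of the 9 tested genes is 0.89, between 1.68 for AP-1 and EGR genes and 0.72 for other primary response genes; the deadenylase, p53 and heat shock lists have medians from -0.14 to -0.05.

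The partners and known targets of the decay regulators had medians near 0 as groups, while single targets moved far in both directions. Over all genes tested, 19.5% were called higher and 19.5% lower, or 39.1% in either direction. Of 14 genes of the CCR4-NOT and PAN deadenylases and the poly(A)-binding protein, 0 rose, 4 fell and 10 were not called by edgeR (median log2 fold change -0.05). The falls were small, with 1.22-fold for the catalytic subunit gene Cnot6 (adjusted p = 0.00108) and 1.20-fold for the scaffold gene Cnot1 (adjusted p = 0.00315), which shares exon bases with another gene. Of 19 mRNAs known as ZFP36 targets in immune and other cells 9 were tested, and 4 rose, 2 fell and 3 were not called (median log2 fold change 0.04). The cytokine gene Lif rose 6.59-fold (adjusted p = 5.01e-05), and the chemokine gene Cxcl1 was 6.10-fold lower (adjusted p = 0.000321). Myc rose 1.15-fold (adjusted p = 0.0272).

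Genes that share known regulators with Btg2 and Ier5 were called no more often than all genes tested. Of all genes tested, 39.1% were called in either direction, 19.5% higher and 19.5% lower. The p53 list held more genes called lower than higher. No list was tested as a set, so these counts are no result about the lists. Of 18 p53 target genes 16 were tested, and 1 rose, 5 fell and 10 were not called (median log2 fold change -0.14). Bbc3, which encodes the cell death protein PUMA, was 3.23-fold lower (adjusted p = 0.000352) and Sesn2, a stress gene, 1.76-fold lower (adjusted p = 5.59e-05), while the cyclin gene Ccng1 rose 1.21-fold (adjusted p = 0.0123). Of 11 genes of HSF1 and heat shock proteins 10 were tested, and 2 rose, 1 fell and 7 were not called (median log2 fold change -0.11). The cochaperone gene Bag3 rose 1.38-fold (adjusted p = 0.00509), and Hsph1 was 1.27-fold lower (adjusted p = 0.00174). Of 15 genes known as NR4A targets in neurons, liver, muscle and immune cells, 7 had 0 counts in all libraries and 5 were tested, with 1 higher and 1 lower. Pfkm, a glycolytic enzyme gene that overlaps 2 annotated genes, rose 1.23-fold (adjusted p = 0.0266), and Pomc, named after its values were seen, had 31 counts over the fenofibrate libraries and 64 over the controls (adjusted p = 0.0386). All adjusted p values in this paragraph are from edgeR.

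By Pearson correlation of log2 normalised CPM over the 6 libraries, the genes most like Nr4a1 among 6416 well-expressed genes were Rhob, Sik1, Mreg, Oat and Ube2j1, with r from 0.998 to 0.999. Rhob, a small GTPase gene of the immediate early class, had 84.8, 93.2 and 84.4 normalised CPM with fenofibrate and 37.2, 42.3 and 41.1 in control. Sik1 had 40.9, 44.3 and 37.2 normalised CPM with fenofibrate and 12.5, 14.8 and 14.7 in control. Such values mostly record the difference between the groups, and 826 of the genes compared had r above 0.95.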

How the data were processed

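The deposited table holds, per library, raw counts per gene and FPKM, both made by the authors; the counting tool, strand setting and filters are not given in the sources used here. The submitters' processing notes name HISAT2 2.0.4, StringTie 1.3.0 and GRCm39 without roles. Gene spans in the table are those of GRCm38 (99.9% of gene IDs are in GENCODE M21, 98.7% of these with the same span), so coordinates are given in GRCm38. The deposited FPKM of the 9 counted genes equals the count over the library total and the summed length of distinct exons. Without a stated strand, reads of overlapping genes cannot be told apart.

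Counts were tested across all genes in R 4.3.3 with edgeR 4.0.16 (filterByExpr, TMM, glmQLFit, glmQLFTest, no covariate), with 3 libraries per group. The SE is the size of the log2 fold change over the square root of F. Alternatives used DESeq2 1.42.0, other scalings and filters, limma 3.58.1 on log2(FPKM + 0.5), a replicate block, each library left out, and, added after the data were seen, robust dispersions and both replicate 2 libraries left out. Motifs were searched in RefSeq promoters. The genes named from other lists are those called with the largest changes, where the group with more RNA averaged at least 1 FPKM, up to 3 in the main direction and 2 in the other, with some left out; likeness to Nr4a1 used genes with 5 FPKM or more. The genes and lists were chosen with earlier results of these data known.

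The edgeR script was also tested on simulated counts (this comparison, 13629 genes, 50 changed at each fold size). Of genes changed 1.25-fold 4% were called, of those changed 1.5-fold 48%, of those changed 2-fold 74%, and 92% of those changed 4-fold. Of the 119 calls in the simulation 10 were false. Far fewer genes were changed there than the 5326 called in the real libraries. The Benjamini-Hochberg adjustment is stricter where few genes change. The percentages called in the simulation therefore do not measure the sensitivity of the real test. P-values set the difference between the groups against the spread between these libraries. One gene that this rule names is not reported here.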

Additional observations from a re-analysis of the deposited data

How the results depend on the processing

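Over 18 alternatives, 162 values of the 9 tested genes were computed; 137 kept direction and side of the threshold, 20 lost the call, 5 gained one and 0 reversed. Nr4a1, Nr4a2, Ier5 and Zfp36 stayed called in all 18. The calls lost, given as log2 fold change with adjusted p, were as follows. Ier3 was 0.43 (0.0576) without a filter on counts, 0.42 (0.0564) with the replicate block, 0.35 (0.0566), 0.36 (0.0576) and 0.34 (0.0563) with limma at pseudocounts of 0.5, 0.1 and 1, 0.35 with limma unfiltered (also not called), and 0.30 (0.181) without replicate 2 of both groups. Nr4a3 was 2.26 (0.0591) and Ier2 0.37 (0.0628) with limma unfiltered, and Ier2 was 0.34 (0.0821) without replicate 2 of both groups. Csrnp1 was 1.40 (0.0520) with limma at a pseudocount of 1 and 1.63 (0.0828) unfiltered. With robust dispersions Nr4a3 was 2.42 (0.0682) and Csrnp1 2.33 (0.0729). Btg2 gained a call at -0.44 (0.0400) with library totals alone and, with limma at pseudocounts of 0.5, 0.1 and 1, at -0.38 (0.0380), -0.42 (0.0368) and -0.33 (0.0388), so that 1 of the 9 was then called lower. With limma unfiltered 4 were called higher. Over the 18 alternatives the adjusted p ran from 2.53e-05 to 0.0682 for Nr4a3, 0.00297 to 0.0821 for Ier2, 0.00486 to 0.181 for Ier3, 0.00241 to 0.0828 for Csrnp1 and 0.0335 to 0.187 for Btg2. The cause of these changes was not tested. Without a filter more genes were tested, but the part of that number in the lost calls was not measured.

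With 1 library left out, the log2 fold changes ran from 1.63 to 1.74 for Nr4a1, 0.99 to 1.24 for Nr4a2, 2.05 to 2.80 for Nr4a3, 0.33 to 0.52 for Ier2, 0.33 to 0.55 for Ier3, 0.77 to 1.05 for Ier5, 1.39 to 2.69 for Csrnp1, -0.50 to -0.29 for Btg2 and 0.53 to 0.73 for Zfp36; 6 to 8 genes were called higher and 0 or 1 lower. Over all genes, 1693 were called higher and 1664 lower without replicate 2 of both groups, where 4 libraries remain. Limma and library totals alone moved the share of higher calls to between 39.9% and 41.1%, from 50.0%. Of 432 counts of the other lists, 368 stayed within 1.5 times.

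Over all genes the replicate numbers showed no pairing of the libraries. Same-numbered libraries had correlations of their deviations from the group means of 0.0203, 0.00972 and -0.0227, and not every library correlated best with its own number. A correlation over all genes can miss a pairing that shows in few genes. Nr4a3 was lowest in replicate 2 of both groups, and its edgeR adjusted p was 0.0110 without the replicate block and 2.53e-05 with it. With the replicate block 2293 genes were called higher and 2247 lower, and 7 of the 9 genes higher. The depth limits Arc, at 0 counts, to 0.222 CPM or less.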
